A study of Mus musculus with 4 samples.

Results

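The insulin-like growth factor (IGF) genes described here are 10 genes, chosen by name from a list, out of 27293 genes counted in embryonic mouse telencephalon. They are the ligand gene Igf1, the receptor genes Igf1r and Insr, the adaptor gene Irs1, and 6 genes of the binding protein family, Igfbp2, Igfbp3, Igfbp4, Igfbp5, Igfbp7 and Igfbpl1. RNA-seq was done on telencephalic tissue of C57BL/6 embryos at embryonic day 13 (E13). There were 2 libraries labelled WT and 2 labelled STINGf/f;Nestin-Cre (cKO), in which Cre driven by the Nestin promoter, active in neural progenitors, removes a floxed part of the STING gene, the adaptor of cytosolic DNA sensing. The comparison asks which genes differ when STING is lost from the neural lineage. The labels state no treatment, and they do not say whether a library came from 1 embryo or several, so p-values measure only the spread between these libraries, which may be technical.

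IGF1 and IGF2 are secreted growth factors that bind the tyrosine kinase receptor encoded by Igf1r, while insulin acts mainly on the closely related receptor encoded by Insr. Both receptors phosphorylate adaptors such as IRS1, which pass the signal to the PI3K-AKT and MAP kinase cascades that support progenitor division, survival and brain growth. The IGF-binding proteins are secreted proteins that hold IGFs outside the cell and set how much reaches the receptor. IGFBP7 and IGFBPL1 belong to the wider family, and IGFBP7 is known as a protein of blood vessels.

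The totals were 17209654 to 18533391 counts on genes per library, and the largest true level that 0 counts can hide, 3 counts, was worth 0.162 to 0.174 CPM (counts scaled to the same total in each library), for counting error only. Over all genes tested, the cKO libraries differed more from each other than the WT libraries did. Of these genes, 47.3% were at least 1.25-fold apart between cKO 1 and cKO 2, and 29.3% between WT 1 and WT 2. In several marker lists, WT 1 stood apart from the other 3 libraries. The summed CPM of 10 markers of meninges and mesenchyme was 306 in WT 1 against 59.7, 83.7 and 46.8 in WT 2, cKO 1 and cKO 2, and that of 6 choroid plexus markers 42.6 against 8.74, 6.34 and 8.17, with Ttr and Clic6 not analysed here. The lists of hem, erythroid cells and pericytes were highest in WT 1 too, and all 7 ventral telencephalic genes were lowest in cKO 1 (588 CPM in sum, against 898 to 942). Markers of cortical progenitors (2281 to 2533 CPM summed over 9 genes) and of cortical neurons (4452 to 5386 over 8 genes) were present in all 4, as the tissue label says. Counts of 4 Y-linked genes (Uty, Kdm5d, Ddx3y and Eif2s3y) summed to 0 in WT 2 and to 1848 to 3002 in the other libraries. WT 2 was thus the only library without signal of male tissue, and sex was not balanced between the labels. The STING gene itself, listed as Tmem173, was counted 20 and 19 times in the WT libraries and 18 and 22 times in the cKO libraries. Its gene-level count did not separate the labels, and "WT" and "cKO" therefore mean libraries labelled so. The title of WT 2 ends in "nes" where that of WT 1 ends in "wt". The labels do not explain this, so whether WT 2 carries the Nestin-Cre transgene cannot be told from them, and its genotype label, WT, was used.

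Levels were first set side by side per length, as TPM (counts divided by the summed exon length of the gene and scaled to the same total in each library). The order ran from Igfbpl1 at 676 ± 82.2 TPM (SD over the 4 libraries, n = 4) down to Igf1 at 0.926 ± 0.490 TPM. Igfbpl1 exceeded 99.0% of all genes tested in mean TPM, and Igf1 exceeded 5.34% of them. Igfbp2 followed Igfbpl1 at 391 ± 32.0 TPM, and the lowest library of Igfbpl1 (571 TPM) lay above the highest of Igfbp2 (429 TPM). Igfbpl1 and Igfbp2 together made up 77.0% to 83.5% of the TPM summed over the 6 binding protein genes in each library.

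Below this pair, neighbours in the order often overlapped. Igfbp4 (93.0 ± 11.0 TPM) and Igfbp5 (91.1 ± 11.9 TPM) did not differ beyond their spread over the libraries. Igfbp7 (40.6 ± 6.13 TPM) overlapped with Igf1r (35.99 ± 2.742 TPM), and Igfbp3 (23.6 ± 4.45 TPM) with Insr (21.5 ± 3.07 TPM). Irs1 stood apart at 10.4 ± 1.88 TPM, and its mean was 11.2 times that of Igf1. These SDs cover both labels, and exon lengths ranged over all annotated isoforms, so a gene that uses short isoforms is placed too low.

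**Figure D1:**
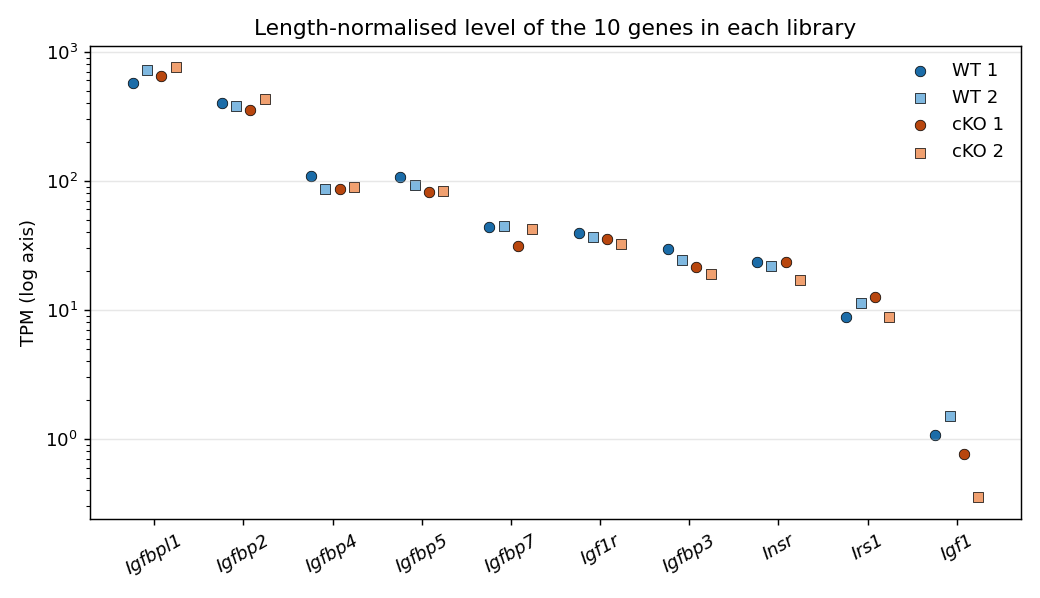
Each point is the level of 1 gene in 1 library in TPM on a log axis, with WT libraries in blue and cKO libraries in orange. Genes are ordered by their mean over the 4 libraries, from Igfbpl1 at 676 TPM to Igf1 at 0.926 TPM.

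Across the 16145 genes tested between the 2 cKO and the 2 WT libraries (edgeR's quasi-likelihood test), all 10 IGF genes passed the filter on low counts, and 1 of them, Igf1, met the study's thresholds, a difference of 2-fold or more with an unadjusted p no higher than 0.05. It was lower in cKO. Of all genes tested, 0.811% met these thresholds in either direction, 0.669% as lower and 0.142% as higher in cKO. After Benjamini-Hochberg adjustment of edgeR's p over all genes, neither an IGF gene nor any other was under 0.05 (0.0% of those tested). At an unadjusted p under 0.05 there were 199 genes, 1.23% of those tested, and DESeq2 gave 127 at that level and 0 after adjustment. Other settings of the edgeR fit gave genes with an adjusted p under 0.05, none of them an IGF gene, with 65 where no filter was applied, 5 with the replicate block, 7 without WT 1 and 80 without WT 2. The median log2 fold change of the 10 genes was -0.12, against -0.01 over all genes tested, with 7 of the 10 below 0, beside 52.1% of all genes, and 3 above. Without Igf1 the median of the other 9 was -0.12 as well, and their log2 fold changes ran from -0.36 to 0.17. With 2 libraries against 2, an exact permutation of the labels can give no two-sided p below 0.333.

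In 4 of the 10 genes (Igf1, Igfbp3, Igfbp5 and Igf1r) the higher cKO library was still under the lower WT library, and 0 genes showed the opposite. Over all genes tested, 10.8% lay below in this way, 11.0% above, and 21.8% did not overlap in either direction. In the other 6 genes the labels overlapped. Libraries with the same label also differed. WT 1 and WT 2 were at least 1.25-fold apart in 3 of the 10 genes (Igf1, Igfbpl1 and Irs1), as were 29.3% of all genes tested, and cKO 1 and cKO 2 in 4 (Igf1, Igfbp7, Insr and Irs1), as were 47.3%.

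**Figure D2:**
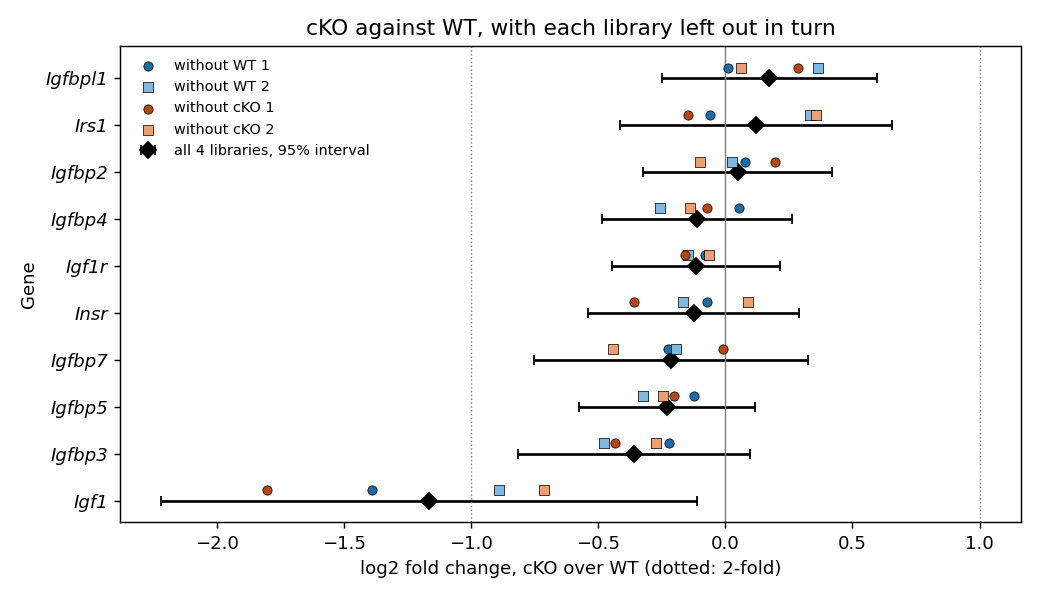
Diamonds give the log2 fold change of cKO over WT for each gene with its 95% interval from the fit of all 4 libraries, and coloured points give it with 1 library left out. The interval of Igf1, from -2.22 to -0.11, lies below 0, and the intervals of the other 9 genes include 0.

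Start-site sequences were read for the 3 genes besides Igf1 whose labels did not overlap, as was so for 21.8% of all genes tested. The 3 genes were chosen after their values were seen, and none of them met the study's thresholds. The binding motif of NF-κB, which STING is known to activate, was looked for as a description only. Whether NF-κB acts on any of these genes was not tested. The RefSeq table (GRCm38.p6) holds windows for 8 of the 10 genes, with 9 starts. Each run below is the 250 bases before 1 RefSeq start, 5′ to 3′ on the gene's strand, with capitals for letters covered by overlapping matches to the degenerate κB consensus. The Igfbp3 window is chr11:7213924-7214173, minus strand, outside the exons of the gene. The Igfbp5 window is chr1:72874866-72875115, minus strand, of which 19 bases lie in an annotated exon. The Igf1r window is chr7:67952007-67952256, plus strand, and ends 570 bases before the gene start in the deposited table.
Igfbp3: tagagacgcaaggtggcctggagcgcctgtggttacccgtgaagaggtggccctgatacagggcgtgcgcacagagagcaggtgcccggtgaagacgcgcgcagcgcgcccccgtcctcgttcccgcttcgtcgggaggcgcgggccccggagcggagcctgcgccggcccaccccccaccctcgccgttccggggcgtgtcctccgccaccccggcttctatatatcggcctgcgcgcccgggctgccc
Igfbp5: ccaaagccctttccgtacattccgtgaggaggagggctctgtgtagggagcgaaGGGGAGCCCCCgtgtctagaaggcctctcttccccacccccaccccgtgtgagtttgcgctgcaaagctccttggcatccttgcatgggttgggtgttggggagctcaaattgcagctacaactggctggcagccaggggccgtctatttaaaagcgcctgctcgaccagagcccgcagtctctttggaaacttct
Igf1r: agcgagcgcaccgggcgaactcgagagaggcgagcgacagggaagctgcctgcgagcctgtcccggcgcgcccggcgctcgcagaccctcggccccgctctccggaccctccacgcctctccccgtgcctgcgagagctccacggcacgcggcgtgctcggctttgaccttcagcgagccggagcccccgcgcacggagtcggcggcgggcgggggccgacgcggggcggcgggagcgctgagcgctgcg

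The κB consensus (both strands) matched 2 of the 9 windows, those of Igfbp5 and Irs1, and 7.25% of all 32851 windows. The labels of Irs1 overlapped and its log2 fold change was 0.12, while the windows of Igfbp3 and Igf1r had no match. TATAAA matched 1 window (Igfbp4) and 12.4% of all, and the FOXO core GTAAACA, the motif of the factors that AKT keeps out of the nucleus, matched 0 windows and 3.17% of all. Such a match is a description of letters and not a bound site. CpG dinucleotides numbered 32 in the Igfbp3 window, 10 in that of Igfbp5 and 42 in that of Igf1r, against a median of 6.0 over all windows. The window of Igf1 had 5 and was the only one of the 9 below that median. It lies 2596 bases inside the deposited gene and within annotated exons, and is therefore not shown.

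Igf1, the ligand gene of the list (chromosome 10, 87858265 to 87937042, plus strand), is identified as ENSMUSG00000020053. WT 1 held 51 counts of it, WT 2 76, cKO 1 39 and cKO 2 18, or 2.93, 4.13, 2.13 and 1.01 CPM. CPM is on library sizes adjusted by the TMM method here, for the genes that follow and for the marker lists above. Only the CPM that 0 counts can hide was given on unadjusted totals. Each cKO library was below each WT library, although cKO 1 was nearer to WT 1 than to cKO 2. The mean was 3.53 ± 0.845 CPM in WT (SD, n = 2) and 1.57 ± 0.795 CPM in cKO (SD, n = 2), which is 2.25-fold lower in cKO. The log2 fold change was -1.17 (standard error 0.46), with an unadjusted p of 0.0340 and an adjusted p of 0.9999 in edgeR's quasi-likelihood fit, and the adjusted p ran from 0.175 to 1 over the alternatives. The call was lost without WT 2 (log2 fold change of -0.89), without cKO 2 (-0.71) and with DESeq2 (-1.16), and the log2 fold change was -1.80 with cKO 1 left out and -1.39 with WT 1 left out. The direction was the same in all 4 fits that left out a library. The annotation places the antisense gene Igf1os over Igf1, and the strand used in counting is not given in the sources used here, so reads of the pair may not be fully parted.

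The library order of Igf1 was its own among the 10 genes. Its highest library was WT 2 and its lowest cKO 2, with a 4.10-fold range, against 1.14-fold to 1.47-fold in the other 9. WT 2 was also the library with 0 counts of the Y-linked genes, and the part of sex in the values of Igf1 was not tested. Likeness was measured as the root mean square difference between profiles over the 4 libraries, each centred on its mean log2 CPM. The nearest of all genes tested were the Mir186 entry (0.05), Gm37477 (0.12) and Gm37313 (0.13), whose counts were 4 to 31 in each library. The nearest IGF gene was Igfbp3, at 0.60, and 2295 genes were nearer. The profiles were not scaled, so a gene with a narrow range lies far from Igf1 whatever its library order. The distances of the other IGF genes therefore do not compare orders. In order, Igfbp3 and Igf1r differed from Igf1 only in which WT library was the higher. Markers of microglia, a cell type known to make IGF1, did not follow this order. The summed CPM of 7 microglial genes was 40.8 and 29.7 in the WT libraries and 26.3 and 32.6 in the cKO libraries, highest in WT 1 and lowest in cKO 1, and 6 of the 7 had their highest value in WT 1. The defining markers Cx3cr1 (80 to 129 counts) and Csf1r (194 to 307 counts) were counted in every library. In bulk tissue, fewer cells of a type and less RNA per cell cannot be told apart.

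**Figure D3:**
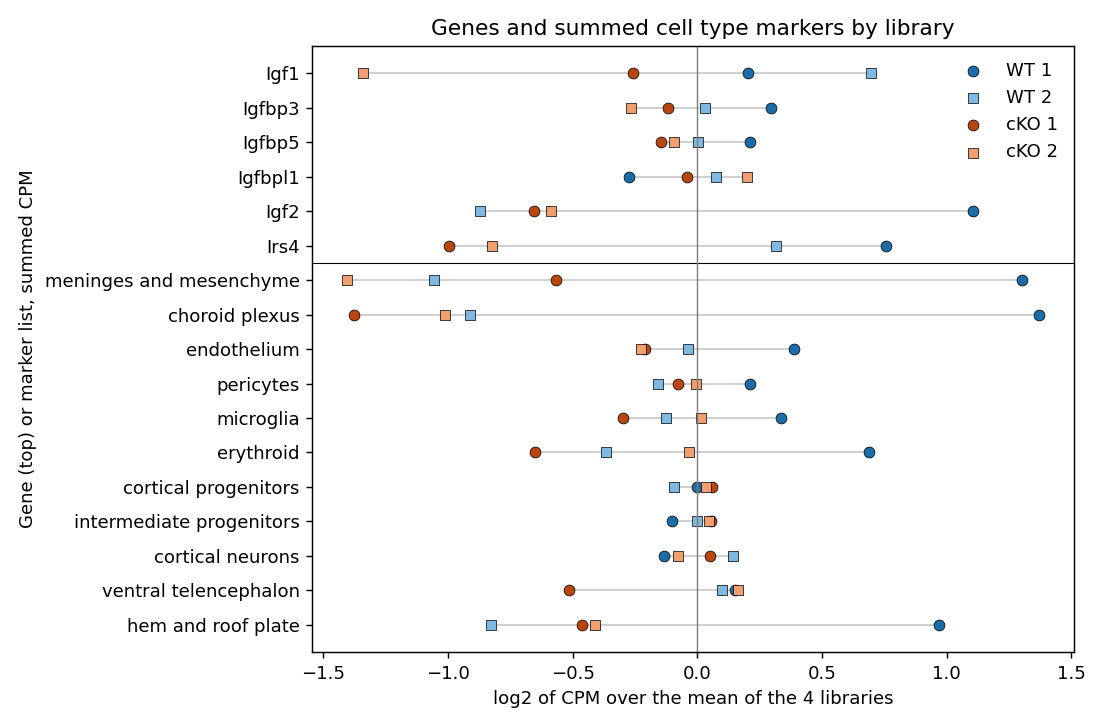
Points give the CPM in each library as log2 of its ratio to the mean of the 4 libraries, for 6 genes above the line and for the summed CPM of 11 cell type marker lists below it. Igf1 is highest in WT 2, while Igf2 and the lists of meninges, choroid plexus, hem and erythroid cells are highest in WT 1.

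Neither receptor gene passed the test. Igf1r (chromosome 7, 67952827 to 68233668, plus strand) had 180, 171, 167 and 158 CPM in WT 1, WT 2, cKO 1 and cKO 2. The cKO libraries lay just below the WT libraries, within a 1.14-fold range. Its log2 fold change was -0.12 (standard error 0.14), with a 95% interval from -0.45 to 0.21, which corresponds to 0.734 to 1.16 times the WT level. Insr (chromosome 8, 3122061 to 3279617, minus strand), the insulin receptor gene, had 89.1, 83.0, 90.7 and 67.2 CPM in the same order. One cKO library was the highest of the 4 and the other the lowest, so the labels overlapped. Its log2 fold change was -0.12 (95% interval -0.54 to 0.29), and 0.09 with cKO 2 left out. In TPM, Igf1r was 1.51 to 1.92 times as high as Insr in each library.

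Irs1, the gene of the adaptor that both receptors phosphorylate (chromosome 1, 82233101 to 82291416, minus strand), had 22.1, 28.8, 32.3 and 23.0 CPM in WT 1, WT 2, cKO 1 and cKO 2. Replicates of each label lay further apart than the label means, which were 25.4 ± 4.74 CPM in WT and 27.6 ± 6.54 CPM in cKO (SD, n = 2 each). The log2 fold change was 0.12 (95% interval -0.42 to 0.65), and it was -0.06 without WT 1 and -0.15 without cKO 1.

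Among the binding proteins, Igfbp3 and Igfbp5 had each cKO library below each WT library, with WT 1 the highest, and neither passed the test. Igfbp3 (chromosome 11, 7206086 to 7213923, minus strand), which encodes a main IGF carrier of the blood, had 439 and 387 counts in the WT libraries and 347 and 306 in the cKO libraries, or 25.3, 21.02, 19.0 and 17.1 CPM. Its log2 fold change was -0.36 (standard error 0.20, unadjusted p of 0.108 in edgeR's fit), and -0.22 without WT 1. Its neighbour Igfbp1, 3540 bases away on the other strand, had 0 to 2 counts per library. Igfbp5 (chromosome 1, 72857932 to 72874884, minus strand) had 177, 153, 138 and 143 CPM, a log2 fold change of -0.23 (standard error 0.15, unadjusted p of 0.163 in edgeR's fit), and -0.12 without WT 1. The summed CPM of 8 endothelial markers had WT 1 highest and both cKO libraries lowest as well, at 207, 154, 137 and 135. In 4 of the 8 each cKO library was below each WT library, beside 10.8% of all genes tested. The part of these cells and of the meningeal markers in the values of Igfbp3 and Igfbp5 was not tested.

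Igfbp4 (chromosome 11, 99041244 to 99054392, plus strand) had 132, 106, 107 and 113 CPM in WT 1, WT 2, cKO 1 and cKO 2. WT 1 was high and the other 3 libraries were alike, and the log2 fold change of -0.11 became 0.06 without WT 1. Igfbp7 (chromosome 5, 77349240 to 77408041, minus strand) had 14.6, 14.9, 10.8 and 14.7 CPM. Here cKO 1 was low and the other 3 libraries were alike, and the log2 fold change was -0.21 (95% interval -0.75 to 0.33) with all libraries and -0.01 without cKO 1. The Igfbp7 locus overlaps Polr2b in the annotation, and its library order differed from that of the endothelial list, which was highest in WT 1.

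Igfbp2 and Igfbpl1, the genes with most RNA of the family, were not lower in cKO. Igfbp2 (chromosome 1, 72824503 to 72852474, plus strand) lies 5458 bases from Igfbp5 on the other strand. It had 203, 195, 184 and 228 CPM, so that both WT libraries lay between the cKO libraries. Its log2 fold change was 0.05, and its 95% interval of -0.32 to 0.42 corresponds to 0.799 to 1.34 times the WT level. Igfbpl1 (chromosome 4, 45809468 to 45826923, minus strand) had 8861, 11939, 10953 and 12620 counts, or 510, 648, 599 and 706 CPM. WT 1 was the lowest library and cKO 2 the highest, and WT 2 lay above cKO 1. Its log2 fold change was 0.17 (95% interval -0.25 to 0.60), and 0.01 without WT 1. The summed CPM of the cortical neuron markers was lowest in WT 1 as well, at 4452, against 5386, 5055 and 4629 for WT 2, cKO 1 and cKO 2. That of the intermediate progenitor markers was also lowest there, at 843, against 904, 940 and 935. Neither sum was highest in cKO 2, where Igfbpl1 was. Gene by gene, the lowest library varied. Of 8 neuronal genes, 3 were lowest in WT 1 and 4 in cKO 2, and of 5 genes of intermediate progenitors, 2 were lowest in WT 1 and 2 in WT 2. The part of these cells in the values of Igfbpl1 was not tested.

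The rest of the pathway was described by a list of 64 genes. Of these, 63 were in the table and 59 passed the filter. At the study's thresholds, 1 of the 59 was lower (Irs4) and 0 were higher in cKO, beside 0.669% lower and 0.142% higher of all genes tested. The median log2 fold change of the 59 was -0.02, against -0.01 over all genes. Of the 59, 35 were below 0, beside 52.1% of all genes tested, and 24 above. Each cKO library was below each WT library in 7 of the 59, beside 10.8% of all genes, and above in 1, beside 11.0%.

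Igf2, the other IGF ligand gene and an imprinted gene with high expression in meninges and choroid plexus, was far more abundant than Igf1. In TPM it was 120 times as high as Igf1 in WT 1, 21.7 times in WT 2, 48.7 times in cKO 1 and 108 times in cKO 2. The WT libraries held 3542 and 952 counts of Igf2 and the cKO libraries 1098 and 1126. WT 2 was the lowest library and WT 1 lay far above the rest. WT 1 was also the highest library for all 10 markers of meninges and mesenchyme. The log2 fold change was -1.05 (standard error 0.50, unadjusted p of 0.0705 in edgeR's fit), and 0.25 without WT 1.

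Irs4, an adaptor gene related to Irs1, had 32 and 25 counts in the WT libraries and 10 and 11 in the cKO libraries, or 1.60 ± 0.341 CPM in WT and 0.581 ± 0.0488 CPM in cKO (SD, n = 2 each). The cKO libraries were alike and well below the WT libraries. The log2 fold change was -1.45 (standard error 0.48, unadjusted p of 0.0160 in edgeR's fit), with the adjusted p at 0.9999. The call was lost without WT 1 (-1.22), without cKO 1 (-1.37) and with DESeq2 (-1.46). Irs2, the more abundant relative, had 778, 775, 673 and 693 counts and a log2 fold change of -0.20 (95% interval -0.58 to 0.18).

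Other genes of the pathway gave no call. Insrr, the insulin receptor-related receptor gene, had 28, 22, 19 and 15 counts and a log2 fold change of -0.57 (standard error 0.46). Igf2r, whose product carries IGF2 to the lysosome, had 2130, 1865, 2292 and 1946 counts, with overlapping labels and a log2 fold change of 0.07 (95% interval -0.31 to 0.44). Pappa, the gene of a protease that cuts IGFBP4, had 93, 75, 89 and 65 counts and a log2 fold change of -0.15. Igf2bp1, an RNA-binding protein gene of the developing brain, had 2477, 2087, 2380 and 2318 counts and a log2 fold change of 0.02. Igfbp6 was near the floor with 5, 4, 9 and 2 counts and was not tested. The lowest p among genes above 0 belonged to Mtor (log2 fold change of 0.13), Akt2 (0.11) and Ptpn1 (0.12), the genes of 2 kinases of the PI3K cascade and of a phosphatase that acts on the insulin receptor, and all 3 had overlapping labels.

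**Figure D4:**
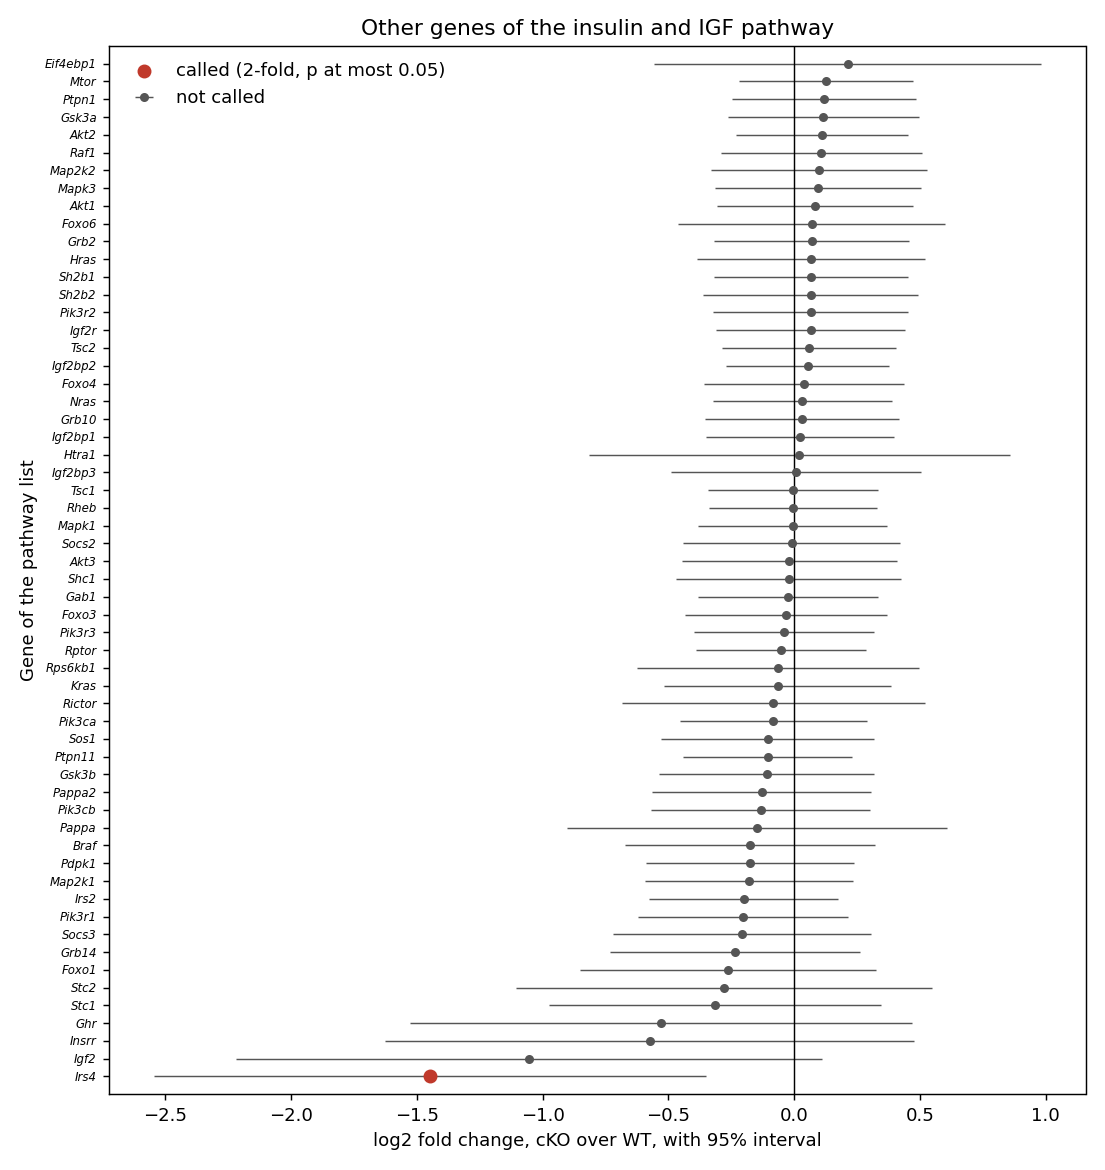
Points give the log2 fold change of cKO over WT with its 95% interval for 58 of the 59 tested genes of the pathway list, ordered by value, and Irs4, the 1 gene called, is in red. All but Irs4 and Igf2 lie between -0.57 and 0.21.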

How the data were processed

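RNA-seq counts of 4 libraries were used (WT 1, WT 2, cKO 1 and cKO 2), grouped by their sample labels. The authors deposited raw counts of reads per gene, not normalized. The submitters' processing notes list Bowtie2 2.2.3, TopHat2 2.0.12, HTSeq 0.6.0 and mm9, with no role, and the strand used in counting is not given in the sources used here. The deposited positions match GENCODE M21 (GRCm38) within 1 base at the start or end for 97.3% of 27232 genes and were read as GRCm38. Of 27304 rows, 11 (0.0403%) were blank and left out. A second table, of cKO 1 and WT 1, and all columns of the authors' own comparisons (fold changes and p-values) were not used.

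The cKO libraries were tested against the WT libraries, gene by gene, in edgeR 4.0.16 under R 4.3.3 (TMM, filterByExpr, quasi-likelihood test, no covariate), with Benjamini-Hochberg adjustment over all 16145 genes tested. The 95% intervals come from the same fit. Genes were called where they differed 2-fold or more with an unadjusted p no higher than 0.05, as in the study. In simulated counts, all 200 genes given 4-fold changes were called, as were 1.05% of the unchanged genes. For comparison, 0.811% of all genes tested were called in the real counts. The changed genes had a higher mean CPM than Igf1 and Irs4, so this check does not cover genes as low as those. No changes nearer to 2-fold were simulated, so it does not show how often those would be called. DESeq2 1.42.0, other scalings and filters, a replicate block and leaving out each library were alternatives, and fits without 1 library assume that the lone library varies like the other label. TPM were computed from exon lengths of GENCODE M21, present for 99.8% of genes. Likeness used a prior count of 1.

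All 10 IGF genes were named, and of the pathway list the genes with an unadjusted p of at most 0.05, the 3 lowest p in each direction, and Igf2, Igf2r, Igfbp6, Irs2, Irs4, Igf2bp1 and Pappa. The values of 1 pathway gene are not reported here, though the list's counts include it. The genes and lists were chosen with earlier results of these data known. Of the 11 marker lists, those not printed in the text are shown in the plot of markers by library. Depth was 17209654 to 18533391 counts per library, so genes with few counts, such as Igf1 and Irs4, are measured with less precision than Igfbpl1.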

Additional observations from a re-analysis of the deposited data

How the results depend on the processing

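Of 100 log2 fold changes of the 10 IGF genes recomputed under the alternatives, 92 kept their direction and their side of the thresholds, 3 (all of Igf1) lost the call and 5 turned sign. The number of IGF genes called (1) was 0 with DESeq2 and ran from 0 to 1 with a library left out. The number with an adjusted p under 0.05 was 0 in each setting. The number whose labels did not overlap (4), which no filter, test or block changes because it rests on CPM, ran from 6 to 8 with a library left out, where fewer libraries overlap by construction. The number of pathway genes called (1) was 2 with no filter on low counts (Igf2 joined Irs4), 0 with DESeq2, and 0 to 2 with a library left out. Without 1 library, Igf1 ran from -1.80 to -0.71, Igfbp2 from -0.10 (without cKO 2) to 0.19, Igfbp4 from -0.26 to 0.0555 (without WT 1), Insr from -0.36 to 0.0891 (without cKO 2), and Irs1 from -0.15 (without cKO 1; -0.06 without WT 1) to 0.35.

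Over all genes, 131 calls became 405 with no filter, 72 where each library had to hold 10 counts or more, 65 with DESeq2, and 100 to 517 with a library left out. The cause was not tested beyond the numbers of genes and libraries. The labels number the libraries of each genotype 1 and 2 and state no litter, batch or day for a number, so the numbers were not taken as pairs. Across 16145 genes, the deviations of libraries sharing a number had a correlation of 0.104. With the replicate block, 208 genes were called, 1 of them an IGF gene (Igf1, log2 fold change of -1.21) and 1 a pathway gene. Low counts limit the precision for Igf1 (18 to 76 counts), Irs4 (10 to 32) and Insrr (15 to 28), and left Igfbp6 and 3 other pathway genes untested.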

Other observations

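Over all genes tested, 47.3% were at least 1.25-fold apart between cKO 1 and cKO 2 and 29.3% between WT 1 and WT 2. Of the 59 pathway genes tested, 25 and 13 were, which is no larger a share than over all genes in either pair.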
